A study of Danio rerio with 20 samples.

Results

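The genes described here are the factors that start and lengthen proteins on the ribosome. They were taken by symbol: every Ensembl gene whose zebrafish symbol, case ignored, begins with eif1, eif2, eif3, eif4, eif5, eif6, eef1 or eef2 was a member, and eif2ak3 was left out. This gave 83 of the 32105 genes in the count tables, of which 65 were initiation factors with their kinases and binding proteins and 18 were elongation factors with their modifying enzymes. Symbols came from a name table that writes many zebrafish genes in the human form, and 16 members share a symbol with another member, so an identifier is added where a symbol alone does not single out 1 gene.

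RNA was sequenced from livers dissected from zebrafish larvae at 5 days post fertilization, in 20 libraries that form 4 groups of 5. Exposed as3mt mutants and exposed wild type were kept in 1 mM sodium arsenite from 96 to 120 hours post fertilization, while unexposed as3mt mutants and unexposed wild type had 0 mM. The mutants carried a CRISPR-made deletion of 8 bp in exon 3 of as3mt, the gene for the methyltransferase that converts inorganic arsenic into methylated forms, and came from crosses of homozygous fish on the ABNYU background, whereas the wild type was TAB5, so the as3mt genotype and the strain background cannot be told apart. Between 12 and 15 livers were pooled for a library. Sample titles carry a cl number shared by the groups, but the labels do not say that pools came from separate clutches, so the p-values measure the spread between these pools.

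A protein is begun when eIF2 brings the initiator tRNA to the small ribosomal subunit, eIF3 serves as a scaffold on that subunit, and the eIF4 factors bring in the capped mRNA. Both the eIF2 and the eIF4E steps can be shut: eIF2 kinases phosphorylate eIF2 so that it blocks its own recycling factor eIF2B, and 4E-binding proteins hold the cap-binding protein eIF4E away from eIF4G until TOR phosphorylates them. Elongation then runs on eEF1, which delivers aminoacyl-tRNA, and eEF2, which moves the ribosome along. Arsenite is a classical trigger of eIF2 phosphorylation in mammalian cells, where the heme-regulated kinase encoded by EIF2AK1 answers to it. Phosphorylation is not seen in these data, which hold mRNA levels only.

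Library totals ran between 25406597 and 42047561 counts. The as3mt transcript was at 8.61 to 18.7 CPM (counts scaled to the size of the library) in exposed mutants, 29.8 to 73.6 CPM in exposed wild type, 61.8 to 81.1 CPM in unexposed mutants and 119 to 134 CPM in unexposed wild type, so within each exposure the mutants were the lower group. Of 16 hepatocyte markers none was without counts, and their summed level was 47493 to 71850 CPM in exposed mutants, 83241 to 147255 CPM in exposed wild type, 245160 to 283075 CPM in unexposed mutants and 299711 to 317458 CPM in unexposed wild type. In bulk samples such as these, fewer cells of a type and less RNA per cell cannot be told apart, and the part of this shift in the results below was not tested. These markers hold a large share of all counts, so the scaling matters: fold changes here are relative to the typical gene (TMM scaling), and taking total counts as library sizes instead moved the median log2 fold change of all tested genes under arsenite to 0.83 in mutants, where it is -0.00 with TMM, and to 0.75 in wild type, where it is 0.03.

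Relative to the typical gene, arsenite moved most of the translation factors, and more of them up than down. Of the 77 members with enough counts to test, 46 were higher and 16 were lower in exposed than in unexposed mutants (edgeR quasi-likelihood test, Benjamini-Hochberg adjusted p under 0.05), so 80.5% of the members were called, beside 61.8% of all 16389 tested genes. In wild type 37 were higher and 15 were lower, that is 67.5% of the members beside 53.3% of all tested genes. The groups of 5 libraries did not overlap for 56 of the 77 members in mutants, beside 48.2% of all tested genes, and for 42 in wild type, beside 34.7%. In mutants 59.7% of the members were called higher and 20.8% lower, beside 31.5% and 30.3% of all tested genes. In wild type these shares were 48.1% and 19.5% of the members, beside 28.7% and 24.6% of all tested genes. All tested genes include many at low levels. When testing was limited to genes averaging 10 CPM or more, 6408 were left. Of these, 4968 were called in mutants, 2567 of them higher, and 4519 in wild type, 2428 of them higher. Calls were thus more frequent among genes at higher levels. How far the members' shares, here and by role below, follow from their levels was not tested. The median log2 fold change of the members, always exposed over unexposed, was 0.40 in mutants and 0.26 in wild type, and the wild-type median was 0.15 without exposed replicate 5. With total counts as library sizes 67 members were higher and 3 lower in mutants, and 65 higher and 3 lower in wild type, so most of the lower calls hold only relative to the typical gene. Under that scaling 9842 of all 16389 tested genes were called higher in mutants and 9740 in wild type.

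The calls of the 2 genotypes largely coincided. A total of 37 members were called higher in both, of the 46 in mutants and the 37 in wild type. Another 14 were called lower in both, of the 16 in mutants and the 15 in wild type, and 0 were called in opposite directions. Called higher in mutants alone were 9, namely eif4ebp1, EIF2AK4, eif2ak2, EIF2S3B, EIF1AD, EIF3B (ENSDARG00000059654), EIF3I, EIF3L and EIF3M. Called lower in mutants alone were EIF3E and EIF4A2, and in wild type alone EIF4EBP2. For none of these 12 was the difference between the 2 responses itself called with TMM scaling, so none is shown to be particular to a genotype. The 14 members called in neither genotype were EIF3A, EIF3D, EIF3G, EIF3H (ENSDARG00000102452), EIF3K, EIF1, eif5a, EIF2S1 (ENSDARG00000052178), EIF4G2 (ENSDARG00000057167), EIF4E3, eif4ba, EEF1D, eef2a.1 and eef2a.2. The 6 members too low to test were eef1a2, EIF4E1B, EEF1A1 (ENSDARG00000069951), eef1a1l3, EIF3B (ENSDARG00000074213) and EEF1AKMT2, at 0 to 8 counts per library.

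**Figure D1:**
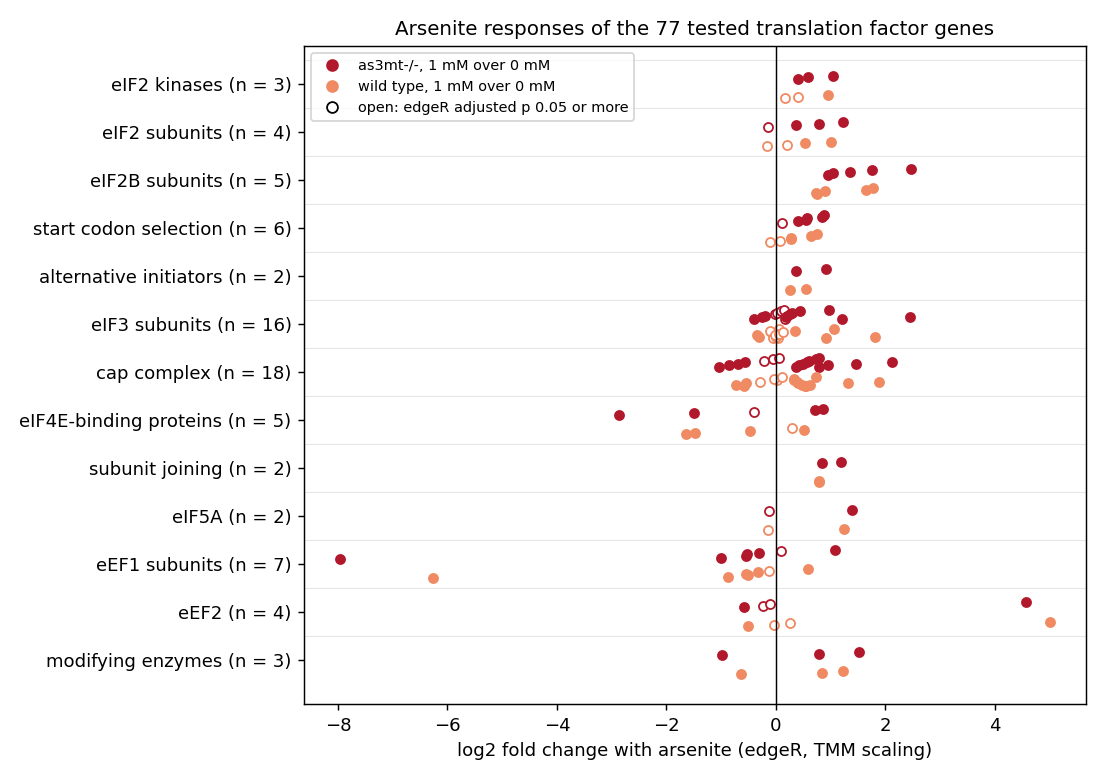
Log2 fold change, exposed over unexposed, of the 77 tested members by role, with mutants in dark red and wild type in orange. Filled points passed edgeR's adjusted p of 0.05 and open points did not. The 5 eIF2B subunits all lie above 0 in both genotypes, while eEF1 and eEF2 hold both the highest and the lowest points.

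All 5 subunits of eIF2B, the exchange factor that recharges eIF2 with GTP, were higher in exposed larvae of both genotypes. Of all tested genes 31.5% were called higher in mutants and 28.7% in wild type. The median log2 fold changes of the 5 subunits were 1.35 in mutants and 0.89 in wild type. No other role with more than 2 members rose in full in both genotypes. EIF2B1, the regulatory alpha subunit, had 57.3, 75.2, 74.1, 87.4 and 65.7 CPM in exposed mutants, against 9.21, 12.8, 11.2, 11.6 and 19.9 CPM in unexposed mutants. It had 66.2, 57.7, 51.6, 57.9 and 52.4 CPM in exposed wild type, against 19.6, 16.5, 17.7, 14.6 and 14.8 CPM in unexposed wild type. Every exposed library lay above every unexposed library in both genotypes. The log2 fold change was 2.47 ± 0.17 (SE) in mutants, 5.55-fold, and 1.78 ± 0.17 in wild type, 3.43-fold (edgeR adjusted p 1.73e-10 and 3.19e-08).

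EIF2B4, the delta subunit, had 123, 116, 148, 159 and 110.1 CPM in exposed mutants, against 32.2, 36.0, 37.4, 34.9 and 55.2 CPM in unexposed mutants. It had 129.6, 117, 109, 128 and 101 CPM in exposed wild type, against 44.2, 34.6, 38.4, 32.6 and 37.7 CPM in unexposed wild type. Again no exposed library overlapped an unexposed one, and the 1 unexposed library that stood up from its group, mutant replicate 5, was still below the lowest exposed library. The folds were 3.35 in mutants and 3.12 in wild type, as log2 1.75 ± 0.14 and 1.64 ± 0.14 (SE; edgeR adjusted p 1.99e-09 and 1.35e-08). EIF2B3, the gamma subunit, averaged 39.9 ± 5.03 CPM in exposed and 15.6 ± 1.1 CPM in unexposed mutants, and 31.8 ± 2.92 CPM in exposed and 17.1 ± 2.24 CPM in unexposed wild type (SD, n = 5 each). EIF2B5, the catalytic epsilon subunit, averaged 48.2 ± 7.84 CPM in exposed and 23.4 ± 2.98 CPM in unexposed mutants, and 41.9 ± 4.45 CPM in exposed and 25.2 ± 1.66 CPM in unexposed wild type. EIF2B2, the beta subunit, moved by log2 0.95 ± 0.10 in mutants and 0.76 ± 0.10 in wild type. The groups of all 3 of these subunits were apart in both genotypes, and the edgeR adjusted p was at most 1.78e-05. Of all tested genes 48.2% had groups apart in mutants and 34.7% in wild type.

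The complex that eIF2B recharges moved less evenly. EIF2S2, the beta subunit of eIF2, had 424, 425, 446, 516 and 438 CPM in exposed mutants, against 169, 177, 199, 169.8 and 249.6 CPM in unexposed mutants. It had 481, 443, 413, 466 and 388 CPM in exposed wild type, against 248, 214, 229, 188 and 205 CPM in unexposed wild type. All exposed libraries exceeded all unexposed ones, by log2 1.22 ± 0.11 in mutants and 1.01 ± 0.11 in wild type (edgeR adjusted p 9.31e-09 and 2.64e-07). The 2 genes named EIF2S1, for the alpha subunit that the kinases phosphorylate, parted: ENSDARG00000005827 was higher by log2 0.78 ± 0.09 and 0.54 ± 0.09 (edgeR adjusted p 4.38e-07 and 6.23e-05), while ENSDARG00000052178 had -0.14 and -0.17 and was not called (0.279 and 0.186 by edgeR). EIF2S3B, a gamma subunit gene, was called in mutants (log2 0.36 ± 0.09, edgeR adjusted p 0.00154) and had 0.20 ± 0.09 in wild type (0.0702). In all, 3 of the 4 eIF2 genes rose in mutants and 2 of the 4 in wild type, beside 31.5% and 28.7% of all tested genes.

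Of the 3 eIF2 kinase genes, the heme-regulated kinase eif2ak1 was higher in exposed larvae of both genotypes. It had 22.6, 18.1, 23.2, 20.8 and 21.5 CPM in exposed mutants, against 11.1, 10.6, 7.90, 9.36 and 12.7 CPM in unexposed mutants. It had 21.7, 19.6, 25, 16.5 and 22.4 CPM in exposed wild type, against 12.1, 10.3, 11.7, 9.60 and 10.9 CPM in unexposed wild type. The lowest exposed library was above the highest unexposed one in each genotype, and the log2 fold change was 1.04 ± 0.13 in mutants and 0.95 ± 0.13 in wild type (edgeR adjusted p 5.45e-07 and 3.3e-06). EIF2AK4, the GCN2 kinase that senses uncharged tRNA, had 23.8, 25.2, 28.1, 37.0 and 23.0 CPM in exposed mutants, against 23.8, 21.8, 19.7, 17.9 and 20.9 CPM in unexposed mutants. The mutant groups overlapped, and exposed replicate 4 was the highest. In wild type it had 25.7, 27.9, 23.8, 25.5 and 24.1 CPM when exposed, against 23.3, 21.1, 26.2, 21.5 and 20.8 CPM when unexposed, which also overlap. It was called in mutants (log2 0.40 ± 0.12, edgeR adjusted p 0.00614) and not in wild type (0.17 ± 0.12, 0.238).

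The third kinase, eif2ak2, encodes PKR, which binds double-stranded RNA and is induced by interferon. It had 2.46, 3.26, 3.09, 4.27 and 2.60 CPM in exposed mutants, against 2.41, 1.84, 1.70, 2.70 and 1.78 CPM in unexposed mutants. It had 1.1, 1.16, 1.34, 0.609 and 0.795 CPM in exposed wild type, against 0.547, 1.06, 0.379, 0.847 and 0.913 CPM in unexposed wild type. Exposed and unexposed libraries overlapped in both genotypes, but every mutant library was above every wild-type library. The arsenite call in mutants was marginal (log2 0.59 ± 0.25, edgeR adjusted p 0.0493), and it was lost when any of 12 single libraries was left out, with adjusted p up to 0.147. In wild type the change was log2 0.41 ± 0.28 (edgeR adjusted p 0.22). The fourth vertebrate kinase of eIF2, EIF2AK3 or PERK, which sits in the endoplasmic reticulum and is no member by the rule, was lower in both genotypes relative to the typical gene and at log2 0.24 and 0.27 under total counts (-0.59 ± 0.18 and -0.45 ± 0.18, edgeR adjusted p 0.00767 and 0.0417).

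**Figure D2:**
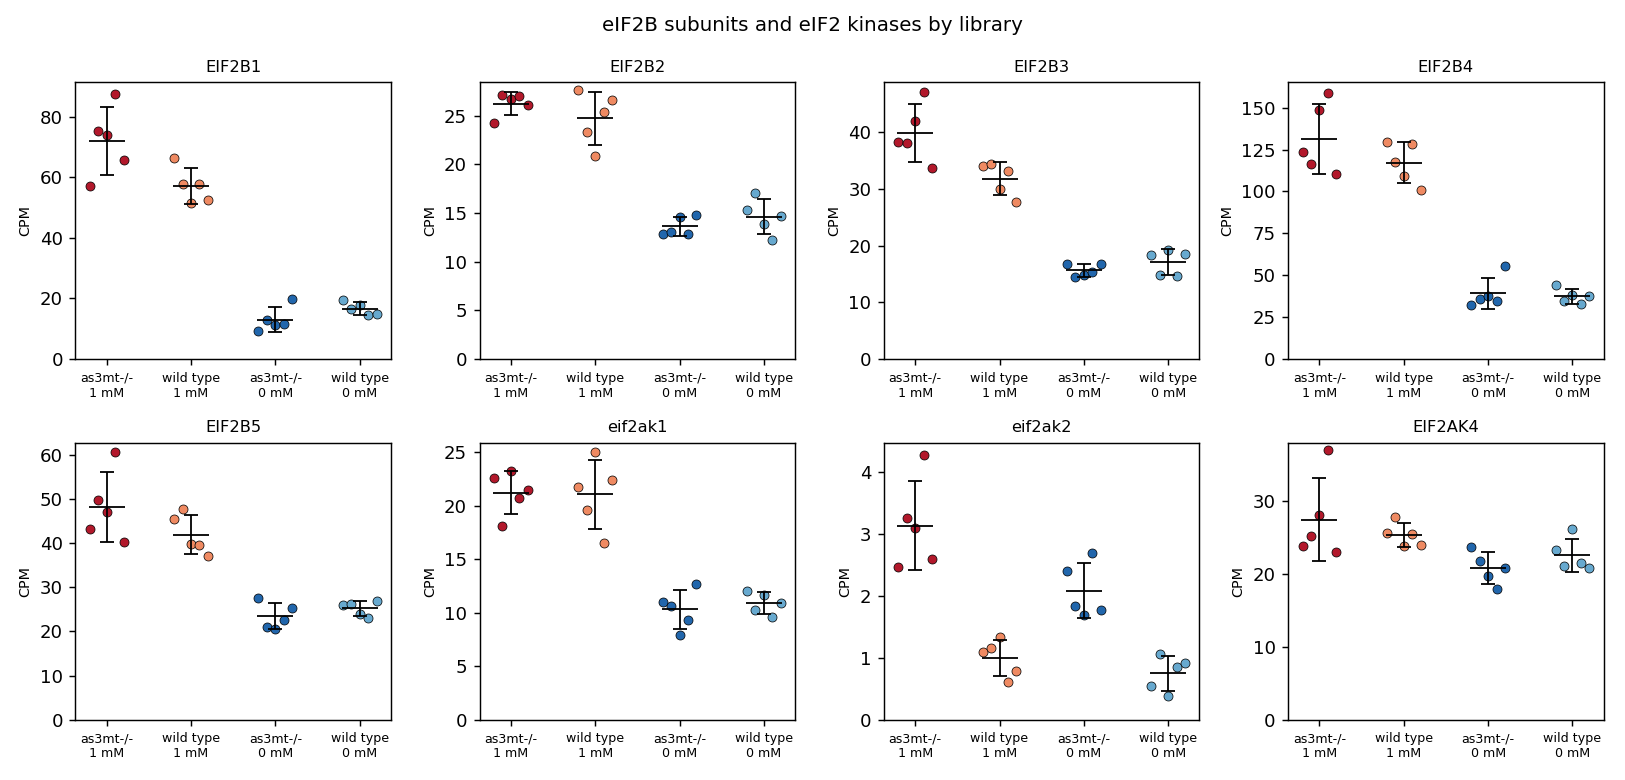
Level in CPM (TMM-scaled) of eIF2B subunits and eIF2 kinases in each library, by group from left to right: mutants at 1 mM, wild type at 1 mM, mutants at 0 mM and wild type at 0 mM. Points are libraries, the line is the mean and the bar the SD (n = 5). The exposed groups stand above the unexposed ones for eIF2B and eif2ak1, and for eif2ak2 the mutant groups stand above the wild-type groups.

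The eif1 genes and EIF5 hold the factors that act around the start codon. Of these, 5 of 6 rose in mutants and 4 of 6 in wild type, beside 31.5% and 28.7% of all tested genes. The gene called in mutants alone was EIF1AD (log2 0.40 in mutants and 0.08 in wild type). It is grouped here by its symbol and is not a factor of start codon choice. EIF5, which makes eIF2 hydrolyse its GTP once the start codon is found, had 278, 263, 261, 256 and 256 CPM in exposed mutants, against 148, 137, 148, 127 and 152 CPM in unexposed mutants. It had 260.0, 255, 209, 237 and 255 CPM in exposed wild type, against 217, 125, 128, 121 and 126 CPM in unexposed wild type. Exposed libraries were higher in both genotypes except that unexposed wild-type replicate 1 stood far above its group and overlapped the exposed range. The change was log2 0.88 ± 0.13 in mutants and 0.76 ± 0.13 in wild type (edgeR adjusted p 6.38e-06 and 5.61e-05). The scanning factor genes eif1axb (log2 0.85 in mutants and 0.64 in wild type), eif1axa (0.55 and 0.28) and EIF1B (0.57 and 0.28) also rose in both. The wild-type call of EIF1B was lost without any of 4 libraries, and EIF1B was then at log2 0.19 to 0.25 (edgeR adjusted p 0.075 to 0.156; unexposed wild type replicates 4 and 5, exposed wild type replicates 4 and 5). EIF1 itself, which guards the accuracy of start codon choice, had log2 0.12 ± 0.08 in mutants and -0.10 ± 0.08 in wild type and was not called (edgeR adjusted p 0.218 and 0.319).

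EIF2D and EIF2A, which can bring a tRNA to the ribosome without eIF2, were higher in both genotypes. EIF2D had 21.5, 21.0, 22.3, 21.3 and 23.6 CPM in exposed mutants, against 13.4, 10.7, 11.3, 12.4 and 10.6 CPM in unexposed mutants. It had 21.6, 16.7, 19.1, 21.7 and 23.0 CPM in exposed wild type, against 15.3, 12.3, 16.3, 11.5 and 14.0 CPM in unexposed wild type. No exposed library overlapped an unexposed one, with log2 0.91 ± 0.11 in mutants and 0.56 ± 0.11 in wild type (edgeR adjusted p 4.16e-07 and 0.00023). EIF2A moved less, by log2 0.36 ± 0.10 in mutants and 0.26 ± 0.10 in wild type (edgeR adjusted p 0.0049 and 0.0396), and its wild-type call was lost without any of 7 libraries, down to 0.15 (adjusted p 0.235) without exposed wild-type replicate 5.

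The subunits of eIF3, the scaffold on the small subunit, had small median log2 fold changes, 0.18 in mutants and 0.03 in wild type. Of 16 subunits, 8 were higher and 3 lower in mutants, and 4 were higher and 2 lower in wild type. All tested genes had 31.5% higher and 30.3% lower in mutants, and 28.7% and 24.6% in wild type. The share of eIF3 subunits called higher was thus above that of all tested genes in mutants and below it in wild type. Both genes named EIF3J, for the loosely attached subunit that helps load and recycle the small subunit, rose, ENSDARG00000012603 by log2 0.98 ± 0.10 in mutants and 1.07 ± 0.10 in wild type and ENSDARG00000053370 by 1.21 ± 0.12 and 0.92 ± 0.12 (edgeR adjusted p at most 2.3e-06). The core subunit EIF3A, in contrast, was at 413 ± 22.2 CPM in exposed and 416 ± 21.5 CPM in unexposed mutants, and 424 ± 28.2 CPM in exposed and 418 ± 21.7 CPM in unexposed wild type (SD, n = 5). The largest change was in 1 of the 2 genes named EIF3H. ENSDARG00000036116 had 17.1, 18.6, 17.8, 18.5 and 15.4 CPM in exposed mutants, against 4.44, 2.56, 2.90, 2.56 and 3.58 CPM in unexposed mutants. It had 13.2, 15.1, 10.7, 11.8 and 9.70 CPM in exposed wild type, against 4.19, 3.46, 2.81, 3.51 and 3.30 CPM in unexposed wild type. The exposed libraries were far above all unexposed ones (log2 2.45 ± 0.16 and 1.81 ± 0.16, edgeR adjusted p 1.07e-10 and 1.64e-08), and the other EIF3H gene, ENSDARG00000102452, was not called (0.10 and -0.11).

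Lower eIF3 calls were small and rested on the scaling. On the log2 scale EIF3F fell by 0.25 in mutants and 0.31 in wild type, and eif3ea by 0.20 and 0.34 (edgeR adjusted p 0.00878, 0.0027, 0.027 and 0.000606), but with total counts as library sizes EIF3F was at 0.59 and 0.42 and eif3ea at 0.64 and 0.38. The mutant call of eif3ea was also lost without unexposed mutant replicate 1, 3 or 5 or exposed mutant replicate 3 or 5 (edgeR adjusted p 0.0512 to 0.0824). EIF3E, a second gene named for the same subunit, fell by 0.40 on the log2 scale in mutants (edgeR adjusted p 0.0181) and was at 0.43 under total counts. Its call was lost without unexposed mutant replicate 2 (-0.35, adjusted p 0.0523) or exposed mutant replicate 4 (-0.32, 0.0588).

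The eif4 genes without the binding proteins and eif4enif1 hold the factors that bind the cap and unwind the mRNA. Of these 18 genes 11 were higher and 4 lower in mutants, and 11 higher and 3 lower in wild type. That is 61.1% higher in each, beside 31.5% and 28.7% of all tested genes, and 22.2% and 16.7% lower, beside 30.3% and 24.6%. They were grouped by symbol, so EIF4A3, which is not a cap factor, is counted among those higher in both genotypes. The eIF4E family gene eif4e1c had 66.7, 86.7, 72.0, 71.8 and 78.8 CPM in exposed mutants, against 26.1, 23.7, 31.6, 25.1 and 30.2 CPM in unexposed mutants. It had 74.3, 66.4, 70.5, 84.9 and 64.6 CPM in exposed wild type, against 30.4, 30.8, 27.3, 24.8 and 31.6 CPM in unexposed wild type. Exposed groups were wholly above unexposed ones, at log2 1.46 ± 0.11 and 1.32 ± 0.11 (edgeR adjusted p 4.77e-10 and 5.87e-09). EIF4E (log2 0.79 in mutants and 0.55 in wild type), eif4eb (0.74 and 0.34) and the scaffold EIF4G1 (0.79 and 0.73) rose too, and so did the helicase cofactors EIF4B (0.49 and 0.40) and EIF4H (0.61 and 0.34). Without exposed wild-type replicate 5 the wild-type calls of eif4eb (edgeR adjusted p 0.083) and EIF4H (0.0561) were lost.

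The lower members of this group were eif4a1b, EIF4E2 and EIF4G3 (ENSDARG00000077215) in both genotypes, and EIF4A2 in mutants, though total counts put the EIF4G3 gene at log2 0.14 in mutants and 0.19 in wild type. The helicase gene eif4a1b had 249, 211, 232, 201 and 238 CPM in exposed mutants, against 393, 394, 423, 407 and 424 CPM in unexposed mutants. It had 208, 234, 244, 253 and 298 CPM in exposed wild type, against 385, 419, 389, 429 and 412 CPM in unexposed wild type. No libraries overlapped, and the change was log2 -0.85 ± 0.09 in mutants and -0.72 ± 0.09 in wild type (edgeR adjusted p 6.98e-08 and 1.35e-06), a call that total-count scaling ended without turning its sign. EIF4E2, a cap-binding protein that represses rather than starts translation, was lower, at log2 -1.04 ± 0.23 and -0.59 ± 0.23 (edgeR adjusted p 0.000624 and 0.038). Under total counts EIF4E2 was at 0.11 in wild type, and no member of this group was called lower in either genotype. The wild-type call of EIF4E2 was also lost without any of 7 libraries (edgeR adjusted p 0.0572 to 0.108). EIF4A2 fell by 0.57 on the log2 scale in mutants (edgeR adjusted p 0.0206), was at 0.27 under total counts, and lost its call without unexposed mutant replicate 1 or 5 (0.0653 and 0.0761).

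The 4E-binding proteins split by gene. The gene eif4ebp1 had 159.9, 116, 173, 158 and 176 CPM in exposed mutants, against 88.0, 71.7, 94.8, 77.6 and 96.9 CPM in unexposed mutants. It had 115, 107, 124, 154 and 173 CPM in exposed wild type, against 99.2, 94.1, 121, 106 and 125 CPM in unexposed wild type. The mutant groups were apart and the wild-type groups overlapped, and it was called in mutants (log2 0.87 ± 0.14, edgeR adjusted p 2.19e-05) and not in wild type (0.30 ± 0.14, 0.0774). The difference of the 2 responses was log2 0.57 ± 0.20 (edgeR adjusted p 0.12), which was not called. With total counts as library sizes, 1 of the 5 members counted as eIF4E-binding proteins was called higher for this difference. Of all 16389 tested genes 432 were then called higher for it.

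Both genes of the third type went the other way. The gene written eif4ebp3 (ENSDARG00000054916) had 22.1, 17.5, 10.6, 9.58 and 25.5 CPM in exposed mutants, against 148, 93.1, 125, 106 and 151 CPM in unexposed mutants. It had 15.4, 30.3, 33.0, 25.1 and 34.8 CPM in exposed wild type, against 70.3, 101, 73.9, 78.1 and 110.0 CPM in unexposed wild type. Every exposed library was below every unexposed one, with log2 fold changes of -2.87 ± 0.27 in mutants and -1.64 ± 0.26 in wild type (edgeR adjusted p 1.29e-08 and 2.02e-05). Unexposed mutants had the highest mean of the 4 groups and exposed mutants the lowest, yet the difference of the responses was just outside the threshold (log2 -1.23 ± 0.36, edgeR adjusted p 0.0564).

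The gene written EIF4EBP3 (ENSDARG00000041607) had 19.7, 12.9, 17.3, 12.7 and 22.0 CPM in exposed mutants, against 47.8, 31.5, 57.1, 38.5 and 62.0 CPM in unexposed mutants. It had 16.9, 20.0, 22.4, 20.2 and 27.8 CPM in exposed wild type, against 55.8, 66.4, 52.0, 59.6 and 65.9 CPM in unexposed wild type. No libraries overlapped, and the change was almost equal in the genotypes, log2 -1.49 ± 0.19 in mutants and -1.48 ± 0.19 in wild type (edgeR adjusted p 7.21e-07 and 1.42e-06). Both of these genes stayed lower with total counts as library sizes. EIF4EBP2 had log2 -0.40 in mutants (edgeR adjusted p 0.0507) and was lower in wild type, at -0.48 ± 0.18 (0.0247). Its groups overlapped in both genotypes, total counts put it at 0.42 and 0.22, and the wild-type call was lost without unexposed wild-type replicate 4 or exposed wild-type replicate 1, 2 or 3 (edgeR adjusted p 0.0517 to 0.077). The transporter eif4enif1, which carries eIF4E into the nucleus, was higher by log2 0.72 ± 0.14 and 0.52 ± 0.14 (edgeR adjusted p 0.000139 and 0.00387).

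**Figure D3:**
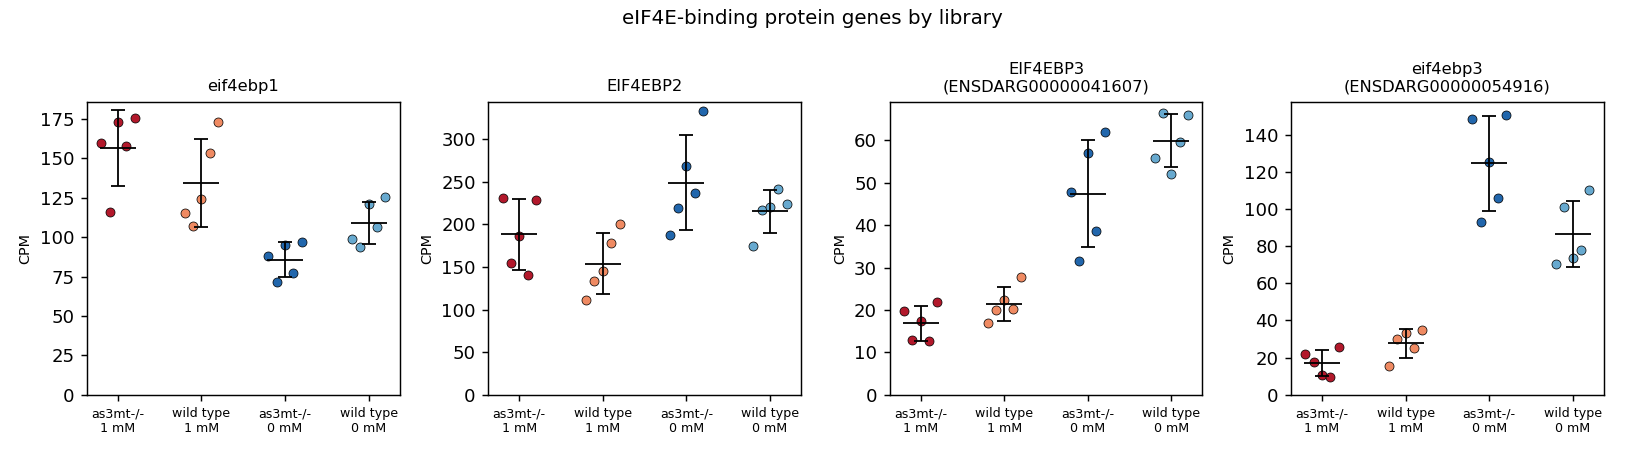
Level in CPM (TMM-scaled) of the 4E-binding proteins in each library, by group from left to right: mutants at 1 mM, wild type at 1 mM, mutants at 0 mM and wild type at 0 mM. Points are libraries, the line is the mean and the bar the SD (n = 5). Exposed mutants have the highest mean for eif4ebp1, while both genes of the third type are low in the 2 exposed groups.

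At subunit joining both tested members were higher in both genotypes. The joining GTPase gene eif5b changed by log2 0.84 ± 0.09 in mutants and 0.79 ± 0.09 in wild type (edgeR adjusted p 1.33e-07 and 5.64e-07). EIF6, which keeps the large subunit from joining too early, had 64.7, 79.8, 79.6, 92.2 and 68.6 CPM in exposed mutants, against 30.6, 31.3, 34.1, 32.1 and 39.2 CPM in unexposed mutants. It had 71.1, 79.9, 62.8, 69.2 and 67.1 CPM in exposed wild type, against 45.0, 42.6, 39.1, 33.0 and 43.5 CPM in unexposed wild type. All exposed libraries were above all unexposed ones (log2 1.20 ± 0.11 and 0.78 ± 0.11, edgeR adjusted p 1.09e-08 and 5.82e-06). Of the 2 genes for eIF5A, the hypusine-bearing protein that frees stalled ribosomes, EIF5A2 rose by log2 1.39 ± 0.12 and 1.24 ± 0.11 (edgeR adjusted p 2.37e-09 and 3.24e-08), and eif5a had -0.12 ± 0.10 and -0.15 ± 0.10 (0.311 and 0.224) and was not called.

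Relative to the typical gene, more elongation factors were lower than higher. With modifying enzymes left out, 2 of 11 elongation factors were higher and 6 lower in each genotype (median log2 -0.30 in mutants and -0.33 in wild type). These are 18.2% and 54.5%, beside 31.5% higher and 30.3% lower of all tested genes in mutants and 28.7% and 24.6% in wild type. Under total-count scaling 8 were higher and 1 lower in mutants (median 0.54) and 7 higher and 1 lower in wild type (0.40). Called higher under that scaling were 9842 and 9740 of all 16389 tested genes. A change of library sizes shifts every gene alike, so relative to all tested genes those medians, at -0.29 and -0.36, can hardly move by construction. Initiation factors without kinases and binding proteins had 37 of 55 higher and 7 lower in mutants, and 31 higher and 5 lower in wild type, with medians of 0.44 and 0.34. These 2 sets are counts over genes, and their difference was not tested.

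The member with the most counts, eef1a1l1, which carries aminoacyl-tRNA to the ribosome, had 8212, 7998, 8388, 8509 and 8445 CPM in exposed mutants, against 12057, 10899, 12704, 11675 and 13461 CPM in unexposed mutants. It had 8473, 10374, 10016, 10595 and 11525 CPM in exposed wild type, against 14302, 11731, 15590.3, 13670.0 and 16916 CPM in unexposed wild type. Exposed libraries were below unexposed ones in both genotypes, at log2 -0.55 ± 0.10 and -0.50 ± 0.10 relative to the typical gene (edgeR adjusted p 7.67e-05 and 0.000277), and above them, at 0.29 and 0.22, under total counts. Of the 4 genes for the exchange factor that recharges it, 3 were lower in both genotypes: eef1da changed by log2 -1.0 ± 0.09 and -0.88 ± 0.09, EEF1G by -0.52 ± 0.08 and -0.54 ± 0.08, and EEF1B2 by -0.30 ± 0.08 and -0.33 ± 0.08 (edgeR adjusted p at most 0.00393), though under total counts EEF1G was at 0.32 and 0.19, EEF1B2 at 0.54 and 0.40, and eef1da kept its sign without a call. The fourth, EEF1D, was not called (log2 0.09 ± 0.11 and -0.13 ± 0.11, edgeR adjusted p 0.511 and 0.331). EEF1E1, which sits in the tRNA synthetase complex, was the higher member of the family (log2 1.09 ± 0.14 and 0.58 ± 0.14, edgeR adjusted p 1.11e-06 and 0.0015).

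A second eEF1A gene was close to 0 in exposed livers. EEF1A1 (ENSDARG00000039502) had 0.123, 0.0494, 0, 0.0950 and 0 CPM in exposed mutants, against 12.1, 11, 16.3, 15.4 and 18.4 CPM in unexposed mutants. It had 0.306, 0.184, 0.0252, 0.0786 and 0.132 CPM in exposed wild type, against 10.5, 16.5, 8.61, 8.71 and 9.45 CPM in unexposed wild type. Exposed mutants held 15 counts in all 5 libraries together and exposed wild type 26, while unexposed mutants held 2095 and unexposed wild type 1286. Exposed mutant replicates 3 and 5 had 0 counts, which allows up to 0.0573 and 0.066 CPM (3 counts, counting error only). The fitted log2 change was -7.97 ± 0.47 and -6.26 ± 0.44 (edgeR adjusted p 2.44e-11 and 7.63e-10) and depends on the prior count at such low levels. Near-identical copies of eEF1A exist in the genome, and how reads shared between copies were counted is not known, so the split between copies is uncertain.

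For eEF2, which translocates the ribosome, 2 of 4 genes were called in each genotype. These 2 moved in opposite directions relative to the typical gene. Of all tested genes 61.8% were called in mutants and 53.3% in wild type, so the eEF2 share was below both. The gene written EEF2 had 198, 216, 247, 345 and 179 CPM in exposed mutants, against 6.99, 7.71, 5.34, 4.45 and 24.9 CPM in unexposed mutants. It had 197, 244, 192, 207 and 38.8 CPM in exposed wild type, against 8.07, 4.18, 4.36, 7.50 and 3.20 CPM in unexposed wild type. Exposed and unexposed libraries did not overlap, although exposed wild-type replicate 5 was far below its group and unexposed mutant replicate 5 far above its own. The change was 23.9-fold in mutants and 32.2-fold in wild type (log2 4.58 ± 0.51 and 5.01 ± 0.52, edgeR adjusted p 1.39e-07 and 1.39e-07), the largest rise of any member in either genotype. Without unexposed mutant replicate 5 the mutant change was 38.8-fold (log2 5.28), above the wild-type value, so no order of the genotypes is read from these folds.

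The copy eef2b had 3493, 3889, 3760.1, 4434 and 4067 CPM in exposed mutants, against 5709, 5586, 5871, 5296 and 7020.0 CPM in unexposed mutants. It had 4761, 5279, 5533, 5365 and 5469 CPM in exposed wild type, against 7247, 5675, 8589.7, 6868 and 9321 CPM in unexposed wild type. It was lower relative to the typical gene, at log2 -0.59 ± 0.12 and -0.51 ± 0.12 without overlap (edgeR adjusted p 0.000194 and 0.000932), and was at 0.26 and 0.21 under total counts. How any reads shared between these copies were counted is not known, so the split between them is uncertain. The genes eef2a.1 and eef2a.2 were not called in either genotype.

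The kinase that switches eEF2 off, EEF2K, had 69.0, 36.9, 50.3, 31.9 and 52.8 CPM in exposed mutants, against 109, 87.8, 103, 76.0 and 102 CPM in unexposed mutants. It had 44.9, 50.3, 52.7, 51.4 and 83.8 CPM in exposed wild type, against 92.6, 95.8, 90.1, 70.0 and 89.1 CPM in unexposed wild type. The mutant groups were apart, while in wild type exposed replicate 5 stood above its group and overlapped the unexposed range. The change was log2 -0.99 ± 0.19 and -0.63 ± 0.19 (edgeR adjusted p 0.000126 and 0.00806). Total counts put EEF2K at 0.08 in wild type, and under them no modifying enzyme was called lower in either genotype. Methyltransferases of eEF1A rose: EEF1AKMT4 by log2 1.52 ± 0.22 and 1.23 ± 0.23, and EEF1AKMT1 by 0.78 ± 0.13 and 0.85 ± 0.13 (edgeR adjusted p at most 0.000134).

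**Figure D4:**
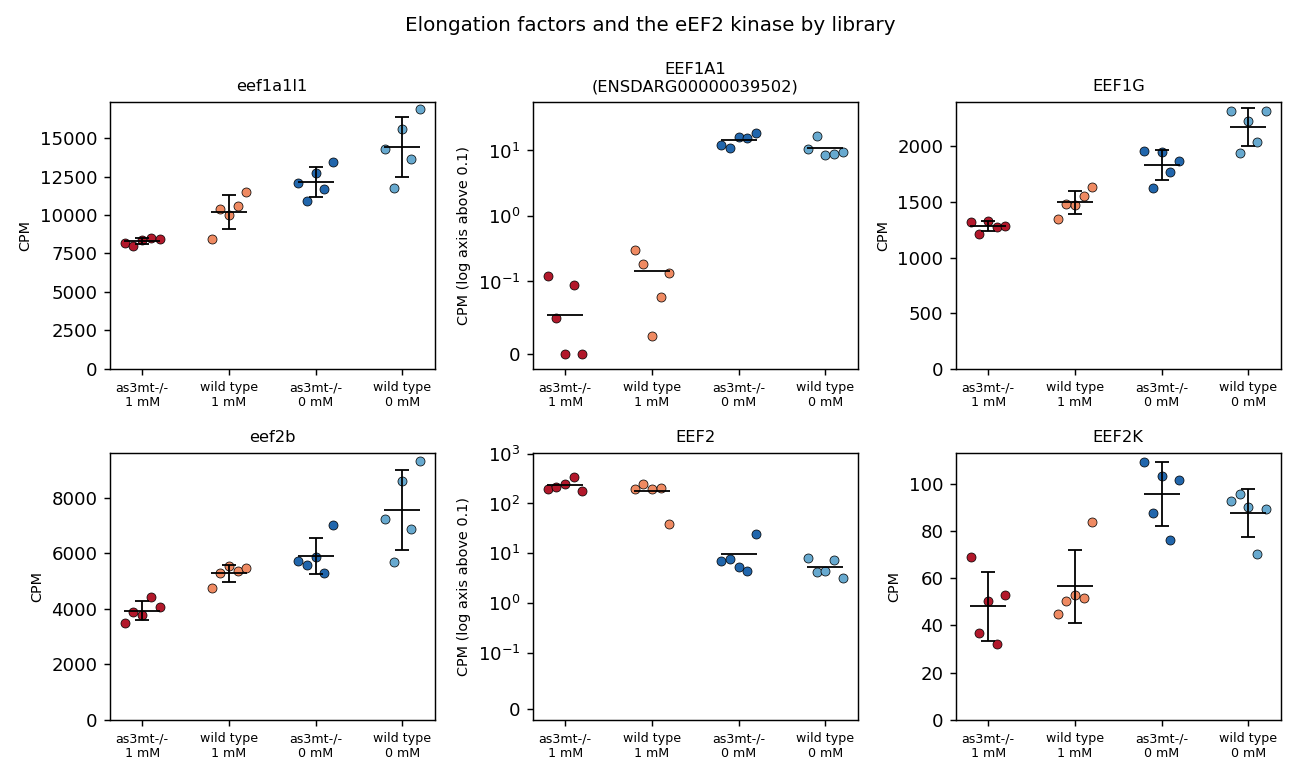
Level in CPM (TMM-scaled) of elongation factors in each library, by group from left to right: mutants at 1 mM, wild type at 1 mM, mutants at 0 mM and wild type at 0 mM. Points are libraries, the line is the mean and the bar the SD (n = 5); the panels of EEF1A1 (ENSDARG00000039502) and EEF2 have a log axis and no SD. EEF2 is high and EEF1A1 low in the 2 exposed groups, and eef1a1l1 and eef2b are lower there.

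Summed over all 83 members, translation factors took 3.59 ± 0.259% of all counts in exposed mutants, 3.40 ± 0.146% in exposed wild type, 2.40 ± 0.145% in unexposed mutants and 2.51 ± 0.251% in unexposed wild type (SD, n = 5). On the TMM scale the same sums averaged 24828 CPM in exposed mutants, 28632 CPM in exposed wild type, 29607 CPM in unexposed mutants and 34975 CPM in unexposed wild type. The share of counts was thus larger in exposed larvae while the summed level relative to the typical gene was smaller. Elongation factors weigh most in that sum. In mutants the eEF1 genes summed to 10573 CPM exposed and 15370 CPM unexposed, and the eEF2 genes to 4183 and 5926 CPM. The eIF3 genes summed to 3524 and 3152 CPM there, and the eif4 genes without the binding proteins and eif4enif1 to 1907 and 1625 CPM. The sum does not stand for the typical member, as the members' median log2 fold change was 0.40 in mutants and 0.26 in wild type.

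Within a library the ratio of 2 genes does not depend on the library size used. Here 1 was added to each count before the ratio, so ratios with few counts also depend on that 1. The 18 pairs of like-named members, formed after their values were known, are given as a description without a test. The helicase pair eif4a1a and eif4a1b changed over in both genotypes. The log2 ratio of eif4a1a to eif4a1b counts averaged 0.64 in exposed and -0.59 in unexposed mutants, and 0.66 in exposed and -0.61 in unexposed wild type, with no overlap. Without gene lengths the sign of this ratio does not rank their levels, but its change does not depend on length. For the EIF4G3 pair, ENSDARG00000074331 over ENSDARG00000077215, exposed minus unexposed was 2.83 in mutants and 2.45 in wild type. The first of these scaffold genes had 35.9, 39.1, 41.5, 39.7 and 45.7 CPM in exposed and 10.6, 9.77, 7.28, 11.3 and 7.38 CPM in unexposed mutants, and the second had 9.71, 9.11, 9.28, 8.17 and 8.96 CPM in exposed and 17.2, 14.0, 14.8, 12.0 and 15.6 CPM in unexposed mutants.

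Most of the other pairs had the same sign in both genotypes. The ratio of EEF2 to eef2b was higher by 5.43 in exposed mutants and 5.35 in exposed wild type, and that of EEF1A1 (ENSDARG00000039502) to eef1a1l1 lower by log2 differences of -7.53 and -5.71. That EEF1A1 gene held 15 counts in exposed mutants and 26 in exposed wild type, so its 2 values depend on the added 1. The pairs of EIF3H (2.36 and 1.90), EIF5A2 over eif5a (1.52 and 1.39), EEF1D over eef1da (1.08 and 0.76) and EIF2S1 (0.91 and 0.72) followed. The ratio of eif4e2rs1 to EIF4E2 was higher by 2.03 in mutants and 1.1 in wild type. EIF4EBP3 over eif4ebp3 was higher by 1.47 in exposed mutants with no overlap, and by 0.18 in exposed wild type with overlap. The sign differed between genotypes for 3 pairs, all with small differences. EIF3E over eif3ea was at -0.23 in mutants with overlap and 0.39 in wild type without. EIF3J (ENSDARG00000012603) over EIF3J (ENSDARG00000053370) was at -0.25 in mutants without overlap and 0.15 in wild type with overlap. For eef2a.2 over eef2a.1 the differences were -0.18 and 0.01, both with overlap.

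**Figure D5:**
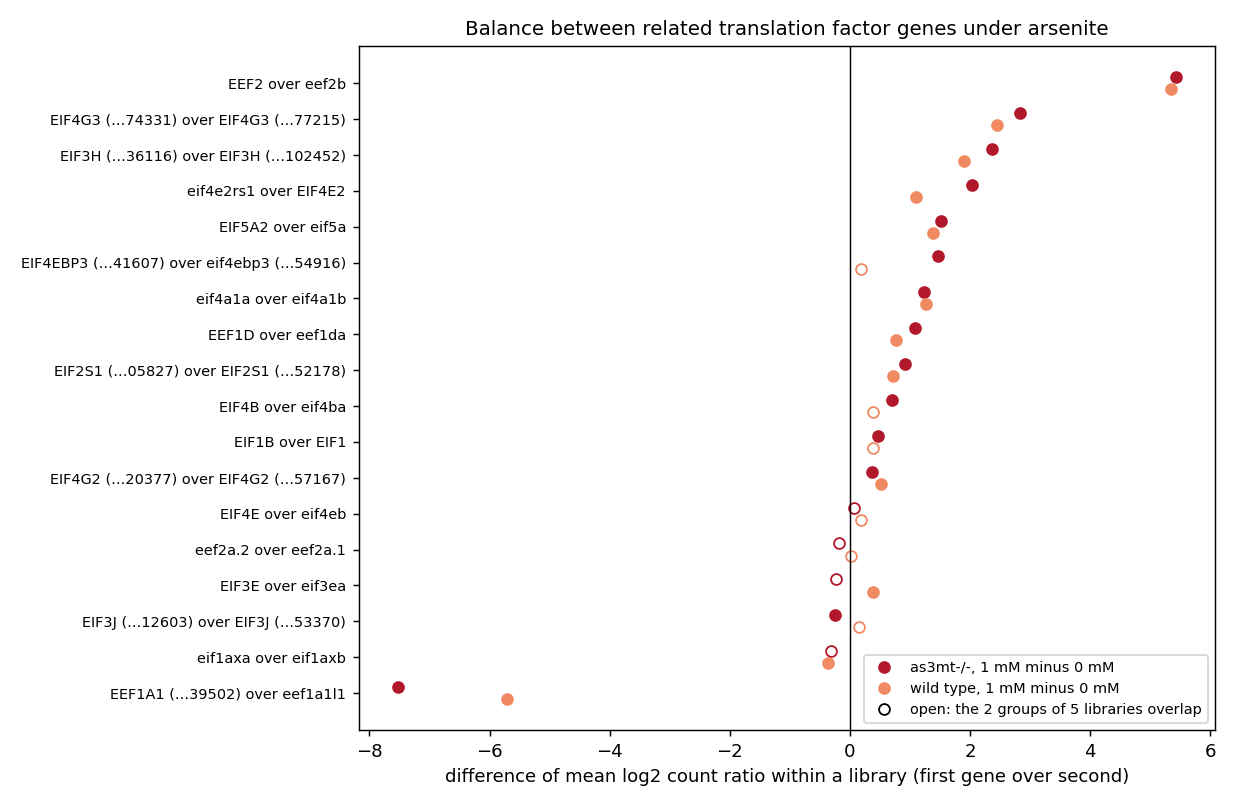
Difference between exposed and unexposed livers in the mean log2 count ratio (1 added to each count) of 18 like-named pairs, with mutants in dark red and wild type in orange. Open markers are pairs whose 2 groups of 5 libraries overlap. The pair of EEF2 and eef2b lies farthest to the right at 5.43 and 5.35, and that of EEF1A1 (ENSDARG00000039502) and eef1a1l1 farthest to the left at -7.53 and -5.71.

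The genotypes differed far less than the exposures. Between exposed mutants and exposed wild type 5 members were higher and 5 lower, 13.0% of the 77, beside 20.6% of all tested genes (7.68% higher and 12.9% lower). Between unexposed mutants and unexposed wild type 2 were higher and 15 lower, 22.1% beside 13.8% of all tested genes (5.91% higher and 7.91% lower). The PKR gene eif2ak2, whose library values are given above, was higher in mutants at both exposures (mutant over wild type log2 1.65 ± 0.26 with and 1.48 ± 0.28 without arsenite, edgeR adjusted p 0.000118 and 0.00126). So was eef2a.2, at 3.26, 3.24, 3.55, 3.26 and 1.94 CPM in exposed mutants, against 0.704, 1.1, 0.680, 0.570 and 0.530 CPM in exposed wild type. Without arsenite it was at 4.02, 2.92, 4.43, 3.19 and 3.43 CPM in mutants, against 0.501, 1.92, 0.607, 0.565 and 0.140 CPM in wild type. No mutant library overlapped a wild-type library, with log2 2.09 ± 0.38 with arsenite and 2.29 ± 0.40 without (edgeR adjusted p 0.000493 and 0.000701).

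EIF3E was the member that was most clearly lower in mutants. It had 3.69, 5.58, 4.37, 3.24 and 4.18 CPM in exposed mutants, against 8.99, 9.57, 8.34, 9.28 and 8.98 CPM in exposed wild type. Without arsenite it had 5.43, 6.34, 5.21, 5.60 and 5.27 CPM in mutants, against 11.2, 6.87, 8.42, 9.36 and 8.22 CPM in wild type. All mutant libraries were below all wild-type libraries at both exposures (log2 -1.1 ± 0.14 and -0.66 ± 0.14, edgeR adjusted p 1.14e-05 and 0.00377). The exchange factor gene eef1da was lower at both exposures (log2 -0.52 ± 0.09 and -0.41 ± 0.09, edgeR adjusted p 0.000256 and 0.00411), and so was eef2b (-0.43 ± 0.12 and -0.35 ± 0.12, 0.0122 and 0.0466 by edgeR). The unexposed call of eef2b was lost without any of 14 libraries (edgeR adjusted p up to 0.145).

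With arsenite, EEF1AKMT4 (log2 0.96 ± 0.21), EIF3H (ENSDARG00000036116, 0.53 ± 0.15) and EIF2B3 (0.33 ± 0.10) were also higher in mutants, and EIF4G3 (ENSDARG00000077215, -0.55 ± 0.15) and eef1a1l1 (-0.29 ± 0.10) lower (edgeR adjusted p 0.00243, 0.0149, 0.0308, 0.0116 and 0.0405). The call of EIF2B3 was lost without exposed mutant replicate 3 or 4 or exposed wild-type replicate 3 or 5 (edgeR adjusted p 0.061 to 0.0992), and that of eef1a1l1 without any of 9 libraries (up to 0.134). Total-count scaling moved these comparisons most: with arsenite 40 members were then higher and 2 lower in mutants, where the median of all tested genes was at 0.25. Of all 16389 tested genes 4294 were then called higher.

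Without arsenite the 15 lower members lay between -0.66 and -0.24, among them the eIF3 subunits EIF3B (ENSDARG00000059654), EIF3D, eif3ea, EIF3H (ENSDARG00000102452) and EIF3L, and EEF1D, EEF1E1, EEF1G, EIF2A, EIF2S3B, eif4eb and eif4e2rs1. Their number ran from 7 to 20 when single libraries were left out: 8 without unexposed wild-type replicate 1, 7 without unexposed mutant replicate 2, and 9 without each of unexposed wild-type replicates 3 and 5 and unexposed mutant replicate 4. Exocrine pancreas markers also varied between libraries and groups. The summed level of 13 exocrine pancreas markers, none of them without counts, was 88.7 to 1362 CPM in unexposed mutants and 26.7 to 191 CPM in unexposed wild type, and 9.18 to 618 CPM in exposed mutants and 9.91 to 45.5 CPM in exposed wild type. With the mean log2 CPM of these markers as a covariate, 1 of the 15 lower calls without arsenite was left, and both higher calls were left. The members' median was log2 -0.14 with the covariate and -0.13 without it, and 1071 of all tested genes were called with the covariate, against 2265 without it. With arsenite the same covariate gave 3 higher members in place of 5. Without arsenite, total counts as library sizes gave 6 higher and 2 lower members, where the median of all tested genes was at 0.18 and 1917 of all 16389 were called higher.

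The size of the arsenite response differed between genotypes for 1 member, which is 1.3% of the 77, beside 3.98% of all tested genes (1.31% higher in mutants and 2.67% lower). The gene eif4e2rs1, of the eIF4E family by name, had 25.9, 26.9, 26.1, 23.5 and 29.8 CPM in exposed mutants, against 13.0, 12.6, 14.1, 14.1 and 14.6 CPM in unexposed mutants. It had 24.4, 24.3, 22.8, 25.6 and 26.6 CPM in exposed wild type, against 19.7, 16.2, 18.5, 16.4 and 18.3 CPM in unexposed wild type. It rose without overlap in both genotypes, by log2 0.95 ± 0.08 in mutants and 0.47 ± 0.08 in wild type, and the exposed groups were close while unexposed mutants were below unexposed wild type. The difference of the responses was log2 0.48 ± 0.12 (edgeR adjusted p 0.0266). The call ended with no filter on low counts (edgeR adjusted p 0.0712) and when any of 6 libraries was left out, at 0.0504 to 0.0554: unexposed mutant replicate 2, exposed mutant replicate 5, unexposed wild-type replicates 1 and 3 and exposed wild-type replicates 2 and 3. Just outside the threshold were eif4ebp3 (ENSDARG00000054916), given above, EIF2B3 (log2 0.46 ± 0.15, edgeR adjusted p 0.0907) and EIF2B1 (0.69 ± 0.23, 0.0913). The members' median difference was 0.12, beside -0.05 over all tested genes.

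Genes around translation initiation and elongation give the setting, and their counts are read beside the 31.5% higher and 30.3% lower of all tested genes in mutants and the 28.7% and 24.6% in wild type. Termination and recycling factors had 5 of 7 tested genes higher and 0 lower in each genotype. Among them were ABCE1, which splits ribosomes (log2 1.20 in mutants and 0.81 in wild type), and PELO (1.24 and 0.83) and HBS1L (0.60 and 0.28), which rescue stalled ribosomes. DENR, which clears tRNA from the small subunit, rose by log2 1.51 ± 0.09 in mutants and 0.90 ± 0.09 in wild type, and this difference was called (0.61 ± 0.12, edgeR adjusted p 0.00775). Exposed mutants and wild type averaged 85.5 and 77.9 CPM of DENR and were not told apart (edgeR adjusted p 0.294). Unexposed mutants were lower than unexposed wild type, at 30.0 against 41.7 CPM (log2 -0.47 ± 0.09, edgeR adjusted p 0.00111). Poly(A)-binding proteins had 3 of 8 higher in each genotype, a share near that of all genes, led by pabpc1b (log2 1.41 and 0.92). Mitochondrial factors had 8 of 9 higher in mutants and 6 of 9 in wild type. GFM2 among them rose by log2 0.94 ± 0.12 and 0.33 ± 0.12, and this difference was called too (0.61 ± 0.16, edgeR adjusted p 0.0388). Mutant over wild type, GFM2 was at log2 0.31 with and -0.30 without arsenite, neither of them called (edgeR adjusted p 0.0612 and 0.0904). Enzymes of hypusine and diphthamide, the modifications of eIF5A and eEF2, had 7 of 8 and 5 of 8 higher, with DHPS at log2 0.96 and 0.52.

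The list of eIF2 phosphatases and stress genes was mixed, with 5 of 12 higher and 4 lower in mutants and 5 higher and 3 lower in wild type. Under total counts 8 were higher and 1 lower in each. Of all 16389 tested genes 9842 were called higher under total counts in mutants and 9740 in wild type. The 2 regulatory subunits that bring a phosphatase to eIF2 parted: ppp1r15b changed by log2 6.22 ± 0.78 in mutants and 3.43 ± 0.62 in wild type, and ppp1r15a by -1.93 ± 0.34 and -2.0 ± 0.34 (edgeR adjusted p 7.16e-07, 0.000105, 5.54e-05 and 5.53e-05). In unexposed mutants ppp1r15b was at 0.0414 to 0.459 CPM, so its fold there rests on few counts, and the difference of the responses was not called (log2 2.80 ± 0.98, edgeR adjusted p 0.12). GCN1, the partner of the GCN2 kinase, rose (log2 0.78 and 0.48), and so did DDIT3, the stress factor CHOP (1.48 and 0.75). Of the same list, TRIB3 was not called (0.18 and 0.13, edgeR adjusted p 0.762 and 0.836). Relative to the typical gene dnajc3a was lower (-0.78 and -0.63). The gene atf4b was called in wild type alone (0.49, edgeR adjusted p 0.0173), and had 0.35 in mutants (0.0738). Genes of the TOR pathway, which controls the 4E-binding proteins, had 5 of 19 higher and 7 lower in mutants and 4 higher and 7 lower in wild type. Under total counts 12 were higher and 3 lower in mutants, and 11 higher and 2 lower in wild type. These shares of higher genes were near those of all tested genes under total counts. The TOR inhibitor gene DEPTOR fell (log2 -3.31 and -1.89), as did pdcd4a, an inhibitor of the eIF4A helicase (-0.90 and -0.94, but -0.08 and -0.24 and not called under total counts), and the stress-induced sesn2 rose (1.41 and 1.33). Its relative sesn3 rose too (1.21 and 1.0), also under total counts (2.05 and 1.72). Another relative, SESN1, was lower (-0.47 and -0.89), but at 0.36 and -0.18 and not called under total counts.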

How the data were processed

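Poly(A)-selected RNA from pooled larval livers, with 100 ng of RNA per library, an integrity number above 7 and 12 cycles of PCR per the labels' protocols, was sequenced on a NextSeq550. The authors deposited whole-number counts for each Ensembl gene, in 1 table per library, and these were used unchanged. Per the submitters' processing notes, FastQC 0.11.5 and Trimmomatic 0.36 were used with genome build GRCz10. The aligner, the counter and the annotation are not given in the sources used here, and the library kit is named in 2 ways, so whether counting used strand is unknown. No genes' lengths were used, so levels are not compared between genes. No sequence or coordinate is given here.

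Symbols were matched for 26269 of 32105 identifiers. Counts were fitted with edgeR 4.0.16 (R 4.3.3) as 4 group means over all 20 libraries, with filterByExpr (16389 genes left), TMM scaling, a quasi-likelihood F test and p-values adjusted by Benjamini and Hochberg's method across the whole table. Calls were made at adjusted p under 0.05. Standard errors were derived from the F statistic, and CPM used TMM-scaled library sizes. The fit was also run on simulated counts with few genes changed, as many up as down, which does not test the choice of scaling. The 5 comparisons were arsenite in each genotype, genotype at each exposure, and the difference of the arsenite responses. Genes were named by rule: every eIF2 kinase and 4E-binding protein, up to 2 called members each way per role with the largest change, the 5 smallest adjusted p-values and members called for the difference of responses. Other genes named were chosen after their values were seen. The members, the roles and the lists were chosen with earlier results of these data known. Alternatives were total counts or DESeq2 size factors, other filters, robust dispersions, DESeq2 1.42.0, replicate blocks, an exocrine pancreas covariate and leaving out each library. The labels give no batch.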

Additional observations from a re-analysis of the deposited data

Results flagged for a closer look

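Among 180 sets of 5 libraries examined for members named by rule, 11 had 1 library whose gap to its nearest neighbour was large for the group's range. Chance alone flags about 1 in 20 such sets.

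Several of them were exposed wild-type replicate 5, which lay towards the unexposed level: EEF2 at 38.8 CPM, EEF2K at 83.8 CPM and EIF4E2 at 10.1 CPM. Among the called members, this library was the nearest of the exposed wild-type libraries to the unexposed mean for 19 of 52, and replicate 3 was for 18. Unexposed mutant replicate 5 lay towards the exposed level for EEF2 at 24.9 CPM and EIF2B4 at 55.2 CPM. In unexposed wild type, replicate 1 stood out for EIF5 at 217 CPM, replicate 2 for EEF1A1 (ENSDARG00000039502) at 16.5 CPM and for eef2a.2 at 1.92 CPM, and replicate 4 for EEF2K at 70.0 CPM. In exposed mutants, replicate 4 stood out for EIF2S2 at 516 CPM and replicate 5 for eef2a.2 at 1.94 CPM. The arsenite response of eif4e2rs1 differed between genotypes by log2 0.48, mutants minus wild type, as a tested difference.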

How the results depend on the processing

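Robust dispersions and DESeq2 size factors moved no count of called members by more than 1.5 times. Total counts as library sizes moved most: the lower members were 3 in mutants and 3 in wild type under arsenite, the higher wild-type members 65, mutants over wild type with arsenite 40 higher and 2 lower and without arsenite 6 higher and 2 lower, and the difference of responses 3 higher. At a mean of at least 10 CPM, mutants over wild type had 3 higher with arsenite, 0 higher and 8 lower without, and the difference of responses 1 lower. With no filter beyond 1 count, 8 were lower without arsenite and 0 were called higher for the difference of responses. The exocrine pancreas covariate left 3 higher with arsenite and 1 lower without. The DESeq2 Wald test called 4 higher and 2 lower for the difference of responses.

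Leaving out 1 library at a time gave 43 to 46 higher and 14 to 17 lower in mutants under arsenite, 32 to 37 higher and 13 to 16 lower in wild type, 4 to 5 higher and 4 to 7 lower for genotype with arsenite, 2 to 3 higher and 7 to 20 lower without, and 0 to 2 higher and 0 to 1 lower for the difference of responses.

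Replicate numbers are shared by the groups, and the deviations of same-numbered libraries correlated at -0.08 to 0.398 over 30 pairs of libraries, with 15 over 0.1 and not all, so the numbers were not taken as pairs. Between exposed and unexposed libraries of the same genotype these correlations were all above 0, at 0.016 to 0.205. A replicate block over all libraries gave 8 lower for genotype with arsenite and 2 higher and 1 lower for the difference of responses. The replicate block within genotype gave 1 lower for that difference, and eif4e2rs1 was then at adjusted p 0.0504 (edgeR), against 0.0254 with the block over all libraries. The difference of responses of eif4ebp3 (ENSDARG00000054916) was called lower with either block, at log2 -1.28 and -1.27 (edgeR adjusted p 0.028 over all libraries and 0.0123 within genotype). The genotype comparisons could not be fitted with the block within genotype, since it is nested in genotype.

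Signs turned as follows. Under total counts, the log2 arsenite change in mutants was 0.43 for EIF3E, 0.59 for EIF3F, 0.42 for EIF4EBP2 and 0.26 for eef2b. In wild type it was 0.08 for EEF2K, 0.42 for EIF3F, 0.11 for EIF4E2, 0.22 for EIF4EBP2, 0.21 for eef2b and 0.38 for eif3ea. These follow from the shift of the whole scale, as do the turns given with the results above for eif3ea and EIF4A2 in mutants and for eef1a1l1, EEF1G, EEF1B2 and EIF4G3 (ENSDARG00000077215) in both genotypes. The turns that follow were of values near 0 that were not called. For genotype without arsenite, EIF2AK4 was at 0.05 and eif2ak1 at 0.09 under total counts, and eif2ak1 at 0.01 at a mean of 10 CPM and -0.17 to 0.0 with 1 library left out. With arsenite, eif2ak1 was at -0.04 with the exocrine covariate and -0.06 to 0.08 with 1 library left out, and EIF2AK4 then at -0.02 to 0.17. The difference of responses of EIF4EBP2 was -0.02 to 0.22 with 1 library left out. That of EIF4EBP3 (ENSDARG00000041607) was 0.03 with DESeq2 size factors and with the DESeq2 Wald test, 0.12 under total counts, 0.0 with no filter, 0.02 with the replicate block over all libraries, 0.01 with the block within genotype and -0.12 to 0.12 with 1 library left out. The cause of turns other than those under total counts was not tested. Members under about 5 CPM, such as eif2ak2, eef2a.2 and EEF1AKMT4, have wide errors at this depth.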
